A study of Mus musculus with 16 samples.

Results

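The 10 genes described here encode enzymes that commit glucose to glycolysis and that make or use lactate: the hexokinases Hk1, Hk2 and Hk3, the phosphofructokinases Pfkl, Pfkm and Pfkp, the regulatory enzyme Pfkfb3, pyruvate kinase Pkm, and the lactate dehydrogenases Ldha and Ldhb. They were taken by symbol from a table of read counts per gene, which held all 10 among its 19457 genes, and all 10 passed the low-count filter that left 18813 genes for testing. The RNA was striatal, from wild-type mice (WT) and from mice whose label, GS, is taken to stand for the LRRK2 G2019S change in the series title. Brains were intact, or were collected 6 h, 3 d or 15 d after 0.8 µl of 500 mM ATP had been injected into the striatum on one side, an injury model in which a molecule released by damaged cells is given in excess. Each of the 8 groups of genotype and stage had 2 libraries, called biological replicates in the labels, and 16 in all. Age, the kind of GS allele, its promoter and any pooling of tissue were not given in the sources used here. Counts per gene do not show a single changed base, so the genotype labels could not be checked from the table. In CPM, counts scaled for library size, Lrrk2 itself had 109.9 to 208 in WT and 113 to 217 in GS libraries.

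Hexokinase traps glucose in the cell as glucose 6-phosphate, phosphofructokinase makes the committed step of glycolysis, and pyruvate kinase makes its last one. Lactate dehydrogenase then converts pyruvate and lactate into each other, with tetramers rich in the Ldha subunit usually associated with lactate production and those rich in Ldhb with lactate use. In the brain Hk1 is the main hexokinase of neurons and glia, while Hk2 and Hk3 are low in healthy tissue, and microglia and macrophages are known to raise glycolysis when activated.

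Libraries held 49220578 to 63948110 counts, so each member was counted far above the filter except Hk3 at 6 h, with 21 to 45 reads. In the 16 libraries 8 markers of striatal projection neurons summed to 4902 to 8114 CPM, so the striatal label was met in each. Cortical marker sums stood apart in 3 WT libraries, at 193 CPM in intact replicate 1, 113 in 6 h replicate 2 and 66.2 in 15 d replicate 1, against 18.1 to 54.3 in the other 13. Choroid plexus markers (6 genes) summed to 407 CPM in GS intact replicate 1, most of it Ttr (359 CPM), against 49.7 to 271 in the remaining libraries. Myeloid markers (8 genes of microglia and macrophages) summed to 62.4 to 67.3 CPM in intact tissue, 52.3 to 56.7 at 6 h, 246 to 549 at 3 d and 371 to 1102 at 15 d. None of 7 neutrophil markers is in the table. Every gene in it has at least 1 count in each library, so a gene unseen in intact tissue would be outside it at all stages. Neutrophil content after injury therefore cannot be read here. In bulk tissue, fewer cells of a type and less RNA per cell cannot be told apart.

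In intact striatum the members covered a wide range of levels. Per kilobase of exon, the median of the 4 intact libraries was 370 CPM per kb for Pkm and 324 for Ldhb. A middle group held Pfkm at 94.6, Ldha at 87.2, Pfkp at 71.3, Hk1 at 43.0 and Pfkl at 25.8 CPM per kb. Pfkfb3 followed at 8.38, and Hk2 at 0.507 and Hk3 at 0.446 CPM per kb were the lowest. The ranges of the 4 intact libraries did not overlap between Ldhb and Pfkm or between Pfkl and Pfkfb3, while Pkm and Ldhb overlapped (336 to 396 and 299 to 347 CPM per kb), and so did Hk2 and Hk3 (0.384 to 0.600 and 0.275 to 0.566). By 3 d Pfkfb3 had a median of 17.0, Hk3 of 2.89 and Hk2 of 2.04 CPM per kb, and those 3 were still the lowest members.

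**Figure D1:**
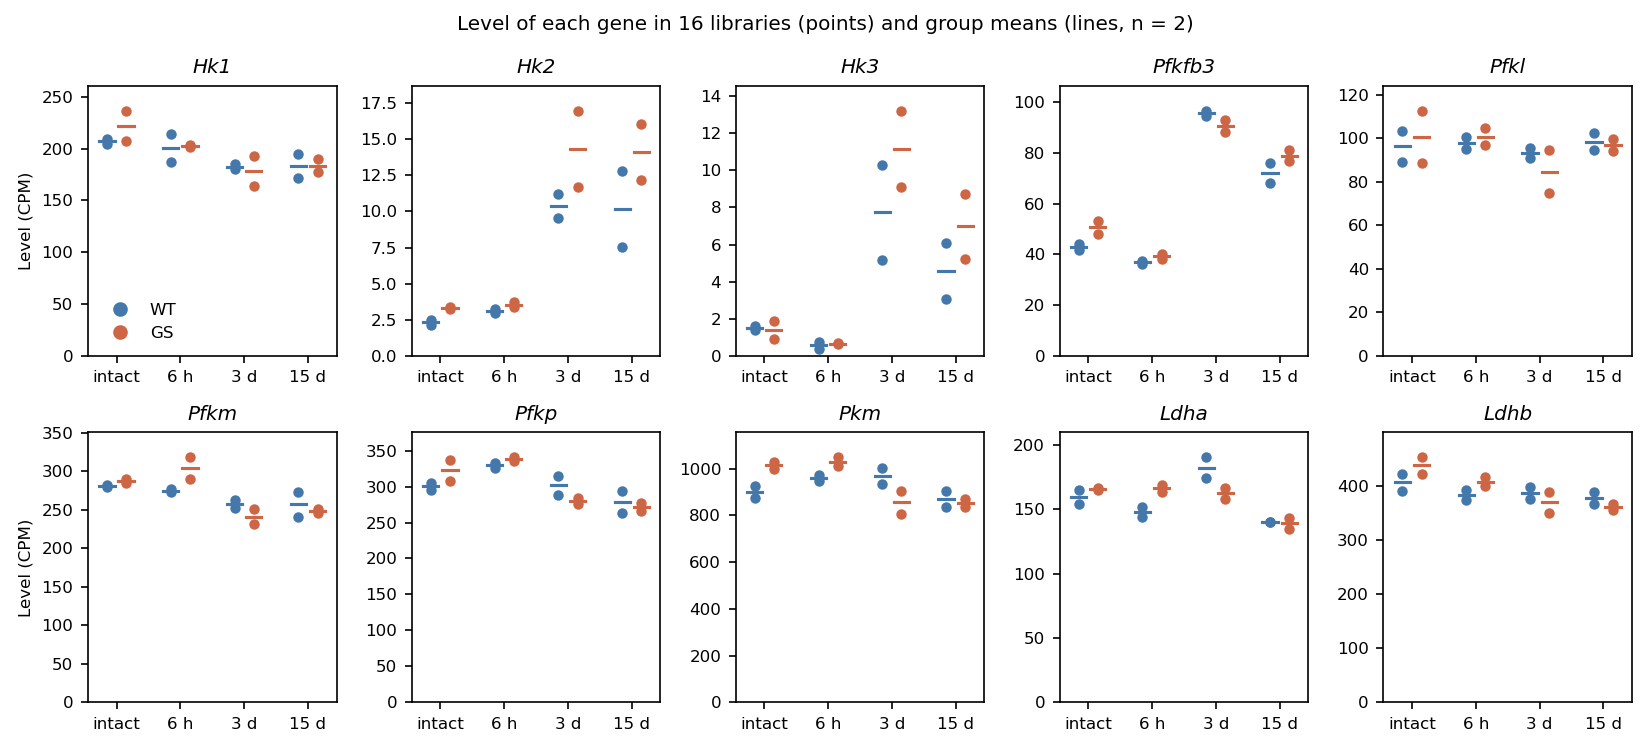
Level of each of the 10 genes (CPM, linear axis from 0) by stage. Points are libraries and lines are means of 2, in blue for WT and orange for GS. Hk2, Hk3 and Pfkfb3 at 3 d and 15 d lie above every intact and 6 h library, while the other 7 genes stay within a narrow range.

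Injury was read as each stage minus intact tissue of the same genotype, in an edgeR quasi-likelihood fit over all 16 libraries with Benjamini-Hochberg adjustment over 18813 genes. The 3 contrasts of a genotype share their intact libraries. At 6 h no member rose in either genotype, and only Pfkfb3 in GS fell. In WT at 6 h edgeR called 0 of 10 members (4.09% of all genes tested, 2.54% higher and 1.55% lower), and DESeq2 also called 0. There 2 members had an unadjusted p under 0.05, as did 3841 of all 18813 genes. In GS at 6 h edgeR called 1 member lower (13.8% of all genes, 7.47% higher and 6.37% lower).

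At 3 d the low members Hk2, Hk3 and Pfkfb3 rose in both genotypes. In WT 4 of 10 members rose and 0 fell (27.4% of all genes were called, 14.7% higher and 12.7% lower), the fourth being Ldha. In GS 3 members rose and 5 fell (35.1% of all genes, 18.6% higher and 16.4% lower). At 15 d the same genes Hk2, Hk3 and Pfkfb3 rose again in both genotypes. WT had 3 members higher and 1 lower (25.4% of all genes, 14.2% higher and 11.2% lower), and GS had 3 higher and 6 lower (37.1% of all genes, 19.4% higher and 17.6% lower). The median log2 fold change of the 10 members was -0.22 in GS at 3 d and -0.23 at 15 d, against -0.01 for all genes in both, and 0.06 and -0.08 in WT.

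**Figure D2:**
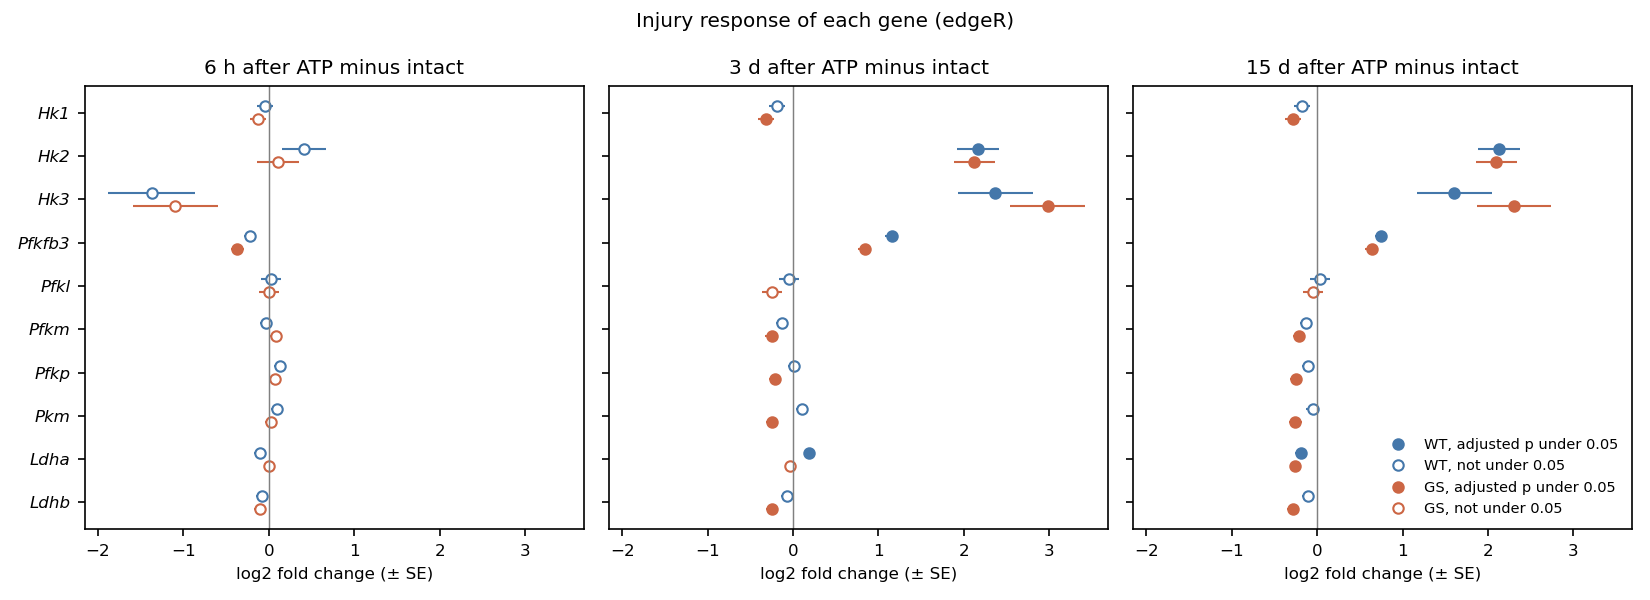
log2 fold change ± SE of each gene (horizontal axis) at 6 h, 3 d and 15 d after ATP relative to intact tissue, WT in blue and GS in orange. Filled points have an edgeR adjusted p under 0.05. Hk2 and Hk3 exceed 1.6 at 3 d and 15 d, and Hk1, Pfkm, Pfkp, Pkm and Ldhb in GS lie between -0.32 and -0.21 at those times.

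The sequences upstream of Hk2, Hk3 and Ldha are shown because Hk2 and Hk3 rose most, while Ldha is the textbook target of the hypoxia factor HIF-1 and moved least among the genes that rose. They come from RefSeq (GRCm38.p6), read on the gene's own strand towards the start site. ACGTG, the core of the hypoxia response element, is in capitals on either strand (as ACGTG or CACGT), and a run of CACGTG, the E-box, holds it on both.
Hk2, minus strand, chr6:82774455-82774704: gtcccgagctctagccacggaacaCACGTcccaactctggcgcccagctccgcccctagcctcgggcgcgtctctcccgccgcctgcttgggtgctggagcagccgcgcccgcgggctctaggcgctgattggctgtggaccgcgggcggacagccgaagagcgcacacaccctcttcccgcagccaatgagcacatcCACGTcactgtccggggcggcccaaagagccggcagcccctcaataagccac
Hk3, minus strand, chr13:55021476-55021635: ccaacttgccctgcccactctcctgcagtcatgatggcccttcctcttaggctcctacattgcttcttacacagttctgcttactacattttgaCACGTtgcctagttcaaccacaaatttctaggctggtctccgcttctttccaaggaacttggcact
Ldha, plus strand, chr7:46845554-46845803: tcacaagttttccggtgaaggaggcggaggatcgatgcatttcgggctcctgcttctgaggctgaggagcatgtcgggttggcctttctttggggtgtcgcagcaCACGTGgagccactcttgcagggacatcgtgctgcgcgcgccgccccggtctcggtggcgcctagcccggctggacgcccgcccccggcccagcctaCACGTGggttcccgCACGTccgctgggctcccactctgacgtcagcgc
The windows of Hk2 and Ldha are the 250 bases before a start, and that of Hk3 is the outer 160 of those 250, beyond the end of the annotated gene. Within 250 bases of these starts, ACGTG matched 2 times for Hk2, 52 and 226 bases before the start, and 1 time for Hk3, at 156 bases. In Ldha it matched 5 times, 4 of them forming 2 CACGTG motifs at 48 and 145 bases. This Ldha window lies within the annotated gene, outside its exons, and the other listed Ldha start had no ACGTG match.

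Over all members, 17 start sites were listed, and 8 of them had ACGTG in the 250 bases before the start, against 16.6% of 32851 such windows of all genes. CACGTG was in 3 of the 17 (6.02% of all windows), and GGAAGT, an ETS-type core searched on both strands, in 3 (19.7%). The 17 windows are not independent, since they belong to 10 genes, and Pfkm alone has 4, in part overlapping. No ACGTG was found before the listed starts of Hk1, Pfkl, Pfkp and Ldhb. Pfkfb3 has 2 listed windows, with 1 match at 60 bases in the first and a CACGTG at 53 bases in the second. Neither is shown, since 148 bases of the first and 11 of the second lie in annotated exons. Members with such a match include Pfkm and Pkm, which fell in GS, as well as Hk2, Hk3 and Pfkfb3, which rose, and a match is a string of letters and not a bound site.

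Hk2 (GRCm38.p6 chr6:82725025-82774454), the inducible hexokinase that binds to mitochondria and has ACGTG at 52 and 226 bases before its start, had 2.15 and 2.48 CPM in the 2 intact WT libraries, 3.22 and 2.94 at 6 h, 9.51 and 11.2 at 3 d, and 7.53 and 12.8 at 15 d. In GS it had 3.37 and 3.22 CPM in intact tissue, 3.39 and 3.70 at 6 h, 11.7 and 17.0 at 3 d, and 12.1 and 16.04 at 15 d. All 8 libraries of 3 d and 15 d were above all 8 of intact tissue and 6 h. The log2 fold change was 2.16 ± 0.25 in WT at 3 d (SE, a 4.47-fold difference, edgeR adjusted p = 5.40e-05) and 2.12 ± 0.24 in GS (adjusted p = 2.35e-05). At 15 d it was 2.13 ± 0.25 in WT (6.01e-05) and 2.10 ± 0.24 in GS (1.87e-05). At 6 h the difference was 0.41 ± 0.26 in WT (adjusted p = 0.391) and 0.11 ± 0.25 in GS (0.821).

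Hk3 (GRCm38.p6 chr13:55005985-55021475), a hexokinase typical of myeloid cells, had 1.62 and 1.37 CPM in intact WT tissue, 0.767 and 0.379 at 6 h, 5.19 and 10.3 at 3 d, and 3.06 and 6.10 at 15 d. In GS it had 1.90 and 0.924 CPM in intact tissue, 0.672 and 0.646 at 6 h, 9.12 and 13.2 at 3 d, and 5.21 and 8.74 at 15 d. Its level was lowest at 6 h, where all 4 libraries were below all 4 intact ones, and highest at 3 d. The rise at 3 d was 2.37 ± 0.43 in log2 in WT (edgeR adjusted p = 0.00130) and 2.98 ± 0.44 in GS (0.000157), a 5.17-fold and a 7.90-fold difference. The 6 h values were -1.37 ± 0.51 in WT (adjusted p = 0.146) and -1.09 ± 0.50 in GS (0.170), so this dip did not pass in either genotype. At 15 d Hk3 was 1.61 ± 0.44 above intact WT (0.0151) and 2.30 ± 0.43 above intact GS (0.000876). The WT call at 15 d was lost without intact replicate 1, intact replicate 2 or 15 d replicate 2 of WT, with an adjusted p of up to 0.184.

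Hk1 (GRCm38.p6 chr10:62268855-62379920), the main brain hexokinase, had 205 to 237 CPM in the 4 intact libraries, 187 to 214 at 6 h, 164 to 193 at 3 d and 172 to 195 at 15 d. All 8 libraries of 3 d and 15 d were below the 4 intact ones. In GS it fell by 0.32 ± 0.09 on the log2 scale at 3 d (edgeR adjusted p = 0.0162) and fell by 0.28 ± 0.09 at 15 d (0.0302). In WT the values were -0.18 ± 0.09 at both times (adjusted p = 0.163 and 0.183). An antisense gene, Hk1os, overlaps Hk1 and had 7 to 25 counts, and since the use of strand in counting is not given, reads of the pair cannot be told apart.

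Within the hexokinases, the share of Hk1 moved from nearly all of the signal to less. Of the summed level per kb of Hk1, Hk2 and Hk3, Hk1 held 97.7 to 98.1% in intact libraries and 98.0 to 98.6% at 6 h. It then held 82.9 to 92.2% at 3 d and 87.7 to 94.0% at 15 d. Hk2 held 0.871 to 1.31% in intact tissue and 4.09 to 7.43% at 3 d, and Hk3 0.631 to 1.13% and 3.74 to 9.69%. The summed level of the family had group means between 41.0 and 46.8 CPM per kb, highest in intact GS tissue.

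**Figure D3:**
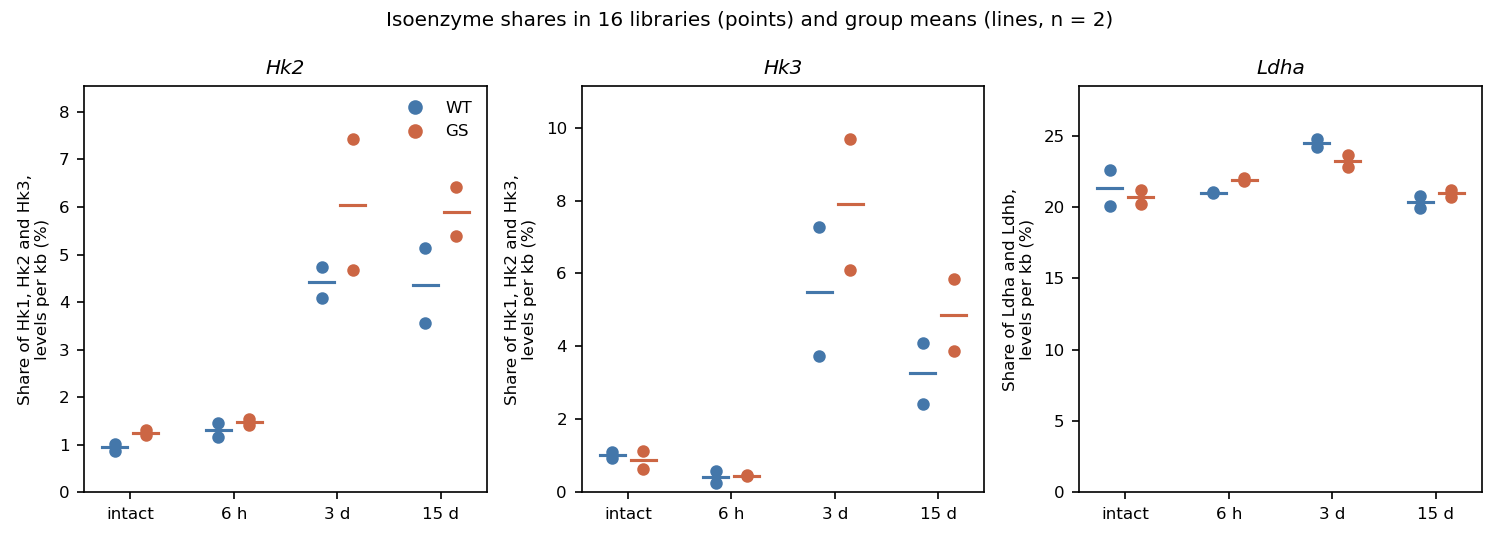
Share of Hk2 and Hk3 in the summed level per kb of the 3 hexokinases, and of Ldha in that of Ldha and Ldhb (%, axes from 0), by stage. Points are libraries and lines are means of 2, WT in blue and GS in orange. Hk2 and Hk3 are under 1.6% in every intact and 6 h library and above 2.4% in every later one, and the Ldha share is highest at 3 d.

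Pfkfb3 makes fructose 2,6-bisphosphate, the strongest activator of phosphofructokinase, and its gene lies at chr2:11471430-11554071 (GRCm38.p6, as for the positions that follow). It had 41.7 and 44.3 CPM in intact WT tissue, 36.3 and 37.4 at 6 h, 96.8 and 94.7 at 3 d, and 68.4 and 76.2 at 15 d. In GS it had 48.2 and 53.3 CPM in intact tissue, 40.3 and 38.3 at 6 h, 93.0 and 88.4 at 3 d, and 76.7 and 81.2 at 15 d. The 4 stages did not overlap: 6 h was lowest, then intact, 15 d and 3 d. The rise at 3 d was 1.16 ± 0.07 in log2 in WT (2.23-fold, edgeR adjusted p = 1.47e-06) and 0.84 ± 0.07 in GS (1.79-fold, 5.24e-06). At 15 d it was 0.75 ± 0.07 in WT (1.92e-05) and 0.64 ± 0.07 in GS (1.73e-05). In GS at 6 h Pfkfb3 fell by 0.37 ± 0.07 on the log2 scale (adjusted p = 0.00468), a call lost without GS intact replicate 2 (adjusted p = 0.0638) or GS 6 h replicate 2 (0.0537). In WT at 6 h the difference was -0.22 ± 0.07 (0.102).

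The phosphofructokinase genes encode the liver (Pfkl, chr10:77986947-78009807), muscle (Pfkm, chr15:98092589-98132447) and platelet (Pfkp, chr13:6579874-6649060) subunits. Pfkm had 279 to 290 CPM in intact libraries, 273 to 319 at 6 h, 232 to 263 at 3 d and 241 to 274 at 15 d. In GS it fell by 0.25 ± 0.07 on the log2 scale at 3 d (edgeR adjusted p = 0.0140) and fell by 0.21 ± 0.07 at 15 d (0.0338). Pfkp had 295 to 337 CPM in intact libraries, 326 to 341 at 6 h, 275 to 315 at 3 d and 264 to 293 at 15 d, so its 15 d range lay below its intact one. In GS it fell by 0.21 ± 0.07 at 3 d (0.0349) and fell by 0.25 ± 0.07 at 15 d (0.0124). In WT neither gene passed at any time, with values from -0.13 to 0.13. Pfkl passed in none of the injury contrasts. Its levels ran from 74.8 CPM in GS 3 d replicate 2 to 113 CPM in GS intact replicate 1, and its largest difference was -0.25 ± 0.12 in GS at 3 d (edgeR adjusted p = 0.118), which passed without GS intact replicate 2 (0.0252) or GS 3 d replicate 1 (0.0204). Pfkm held 46.2 to 50.7% of the summed level per kb of the 3 genes over all 16 libraries, Pfkp 34.1 to 39.8% and Pfkl 12.04 to 15.7%. The share of Pfkl was 14.5 to 15.7% at 15 d, above all libraries of 6 h and 3 d (12.4 to 14.5%) and overlapping with intact tissue.

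Pkm (chr9:59656576-59679372), the most abundant member, had 874 and 926 CPM in intact WT tissue, 945 and 973 at 6 h, 1002 and 934 at 3 d, and 834 and 902 at 15 d. In GS it had 1028 and 999 CPM in intact tissue, 1010 and 1049 at 6 h, 904 and 806 at 3 d, and 834 and 868 at 15 d. GS libraries were above WT in intact tissue and at 6 h, below WT at 3 d, and overlapped with it at 15 d. With 2 libraries per group such separation is easily reached without a true difference, and Pkm passed between genotypes at no stage. In GS Pkm fell by 0.25 ± 0.07 on the log2 scale at 3 d (edgeR adjusted p = 0.0177) and at 15 d (-0.25 ± 0.07, 0.0144), while WT had 0.11 ± 0.07 at 3 d (0.311) and -0.05 ± 0.07 at 15 d (0.644). The splice forms of Pkm, which differ between adult brain and proliferating cells, are not separated by a count per gene.

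Ldha (chr7:46842274-46855627), the subunit linked to lactate production, had 165 and 154 CPM in intact WT tissue, 144 and 152 at 6 h, 191 and 174 at 3 d, and 139.8 and 140.4 at 15 d. In GS it had 165 and 167 CPM in intact tissue, 164 and 169 at 6 h, 167 and 158 at 3 d, and 135 and 143 at 15 d. WT libraries were highest at 3 d, GS libraries overlapped among intact tissue, 6 h and 3 d, and both genotypes were lowest at 15 d. In WT Ldha rose by 0.19 ± 0.07 in log2 at 3 d (1.14-fold, edgeR adjusted p = 0.0426) and fell by 0.19 ± 0.07 at 15 d (0.0481). In GS it fell by 0.26 ± 0.07 at 15 d (0.00706) and was at -0.03 ± 0.07 at 3 d (0.726). Both WT calls lie close to the threshold. With the 3 WT libraries of high cortical signal left out, the WT values were 0.24 at 3 d (adjusted p = 0.0960) and -0.13 at 15 d (0.417), and neither passed. The rise at 3 d also failed in 10 of 16 fits that left out a library (WT intact replicates 1 and 2, GS intact replicate 1, each 6 h library, WT 3 d replicate 1, and both GS 15 d libraries), with an adjusted p of up to 0.247, and with only the groups compared or upper-quartile factors. The WT decrease at 15 d failed without any intact, 6 h or 15 d library, with an adjusted p of up to 0.291, and in 4 other alternatives.

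Ldhb (chr6:142490249-142507957), the subunit linked to lactate use, had 390 to 453 CPM in intact libraries, 374 to 416 at 6 h, 350 to 398 at 3 d and 355 to 389 at 15 d. In GS, where both intact libraries were above all later ones, it fell by 0.24 ± 0.07 on the log2 scale at 3 d (edgeR adjusted p = 0.0169) and fell by 0.28 ± 0.07 at 15 d (0.00732). In WT it was at -0.07 ± 0.07 at 3 d (0.503) and -0.10 ± 0.07 at 15 d (0.313). Counts of Ldha relative to Ldhb, a ratio that does not depend on library scaling, ran from 36.5 to 42.4% in intact libraries and from 38.6 to 41.0% at 6 h. They ran from 42.9 to 47.9% at 3 d and from 36.1 to 39.2% at 15 d, so the 3 d libraries were above all 12 others. A pseudogene, Ldha-ps2, and a related gene, Ldhal6b, had 14 to 41 and 6 to 41 counts against 7135 to 11296 for Ldha.

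The decreases in GS were small and depended on single libraries and on scaling. At 3 d those of Hk1 and Pfkm were lost without GS intact replicate 1 or GS 3 d replicate 2. That of Ldhb was lost without GS intact replicate 2 or GS 3 d replicate 2, that of Pkm without any of these 3 libraries, and that of Pfkp without GS intact replicate 2 or either GS 3 d library. At 15 d Hk1 was lost without GS intact replicate 1 or either GS 15 d library, Pfkm without any GS intact or GS 15 d library, and Pfkp without GS intact replicate 2 or GS 15 d replicate 2. Pkm was lost without GS intact replicate 1 or GS 15 d replicate 1, Ldha without GS 15 d replicate 1, and Ldhb without GS intact replicate 2 or GS 15 d replicate 1. The largest adjusted p in these fits was 0.244 at 3 d (Pfkp) and 0.247 at 15 d (Hk1). With scaling by library total alone, an alternative chosen after seeing the data, none of the 11 passed, with values from -0.27 to -0.11 and adjusted p from 0.0521 to 0.271. In contrast, the calls of Hk2 and Pfkfb3 at 3 d and 15 d in both genotypes, of Hk3 at 3 d in both, and of Hk3 at 15 d in GS passed without each of the 16 libraries and under every other alternative run.

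From 3 d to 15 d, averaged over genotypes, Pfkfb3 and Ldha fell and no member rose (2 of 10 lower, against 7.07% of all genes lower and 6.76% higher). Pfkfb3 fell by 0.30 ± 0.05 on the log2 scale (edgeR adjusted p = 0.00208) and Ldha fell by 0.30 ± 0.05 (0.00132), and for both genes all 4 libraries of 15 d were below all 4 of 3 d. Hk2 was at -0.03 ± 0.16 between these times (95% interval -0.39 to 0.34, adjusted p = 0.932). Hk3 was at -0.72 ± 0.28 (0.0992), with overlapping libraries. Both calls passed without each library in turn.

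No member passed the comparison of GS with WT at any stage or averaged over stages. edgeR called 0 of 10 members in intact tissue (0.0159% of all genes), 0 at 6 h (0.00532%), 0 at 3 d (0.0106%), 0 at 15 d (0.00532%) and 0 in the average (0.0106%). At an unadjusted p under 0.05 there were 2, 1, 2, 0 and 2 members. Of all 18813 genes, 2056, 1285, 1552, 915 and 1857 were under it in the same comparisons. DESeq2 also called 0 members in each. Hk2 had a higher mean in GS at all 4 stages, and its replicates did not overlap between genotypes in intact tissue, at 6 h or at 3 d. With 2 libraries per group such separation is easily reached without a true difference, and the share of all genes that show it was not counted. Averaged over stages Hk2 was 0.41 ± 0.12 higher in log2 in GS (95% interval 0.14 to 0.69, edgeR adjusted p = 0.366). Pfkfb3 was 0.24 ± 0.07 higher in intact GS tissue (adjusted p = 0.296), and Pkm 0.17 ± 0.07 higher there (0.419).

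The difference between genotypes in the response to injury was tested directly and did not pass for any member. edgeR called 0 of 10 members at 6 h (0.0106% of all genes), 0 at 3 d (0% of all genes) and 0 at 15 d (0%), with 0, 3 and 0 members at an unadjusted p under 0.05. Of all 18813 genes, 1772, 1866 and 1028 were under it in the same tests. The 3 members at 3 d were Pkm, Pfkfb3 and Ldha, each lower in GS relative to its own intact tissue than in WT. For Pkm the difference was -0.35 ± 0.10 (95% interval -0.59 to -0.11, adjusted p = 0.439), and DESeq2 called it at an adjusted p of 0.0333, its only member call there. It was -0.32 ± 0.10 for Pfkfb3 (edgeR adjusted p = 0.439) and -0.22 ± 0.09 for Ldha (0.463). So the decreases that passed in GS and not in WT are not shown to differ between genotypes. For Hk2 the 3 d difference was -0.04 ± 0.34, with an interval of -0.82 to 0.73, and for Hk3 it was 0.61 ± 0.60 (-0.78 to 2.003).

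Marker levels of other cells changed with stage, in part alongside the members. Counts of called markers, here and for neurons and astrocytes below, are read beside the shares of all genes. At 6 h, 3 d and 15 d these were 2.54, 14.7 and 14.2% higher in WT and 7.47, 18.6 and 19.4% in GS. Lower were 1.55, 12.7 and 11.2% in WT and 6.37, 16.4 and 17.6% in GS. At 3 d WT replicate 1 had the lowest myeloid marker sum (246 CPM) and the lowest Hk2 and Hk3, and GS replicate 2 the highest of all 3 (549 CPM of markers). At 15 d WT replicate 1 (371 CPM) and GS replicate 2 (1102 CPM) held the same places for Hk2 and Hk3. Pfkfb3 ran against the myeloid markers among the 3 d libraries, from 96.8 CPM at a marker sum of 246 to 88.4 CPM at 549, and with them among the 15 d libraries, from 68.4 CPM at 371 to 81.2 CPM at 1102. Of the 8 myeloid markers, 7 rose in WT at 3 d and 8 at 15 d, and 8 in GS at both times. From 3 d to 15 d, averaged over genotypes, 4 of these 8 rose and 0 fell (median log2 fold change 0.54), against 6.76% of all genes higher. Over that step Pfkfb3 fell, and Hk2 and Hk3 did not pass. Of 7 microglial markers (such as P2ry12 and Tmem119), 2 fell in WT at 6 h and 4 in GS, and their sum was 280 to 310 CPM at 6 h against 400 to 424 CPM in intact tissue, where Hk3 and Pfkfb3 were also higher than at 6 h. Endothelial markers (6 genes, such as Cldn5 and Pecam1) summed to 66.1 to 99.2 CPM in intact tissue, 55.4 to 70.5 at 6 h, 95.1 to 143 at 3 d and 82.5 to 109 at 15 d. Of these 6, 4 fell in GS at 6 h (median log2 fold change -0.67), where Pfkfb3 fell, and at 3 d 3 rose in WT and 2 in GS. Erythrocyte markers (4 tested) rose at 6 h in both genotypes, with sums of 27.7 to 58.9 CPM against 3.34 to 5.82 in intact tissue. The part of any of these cells in the levels of Hk2, Hk3 and Pfkfb3 was not tested.

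**Figure D4:**
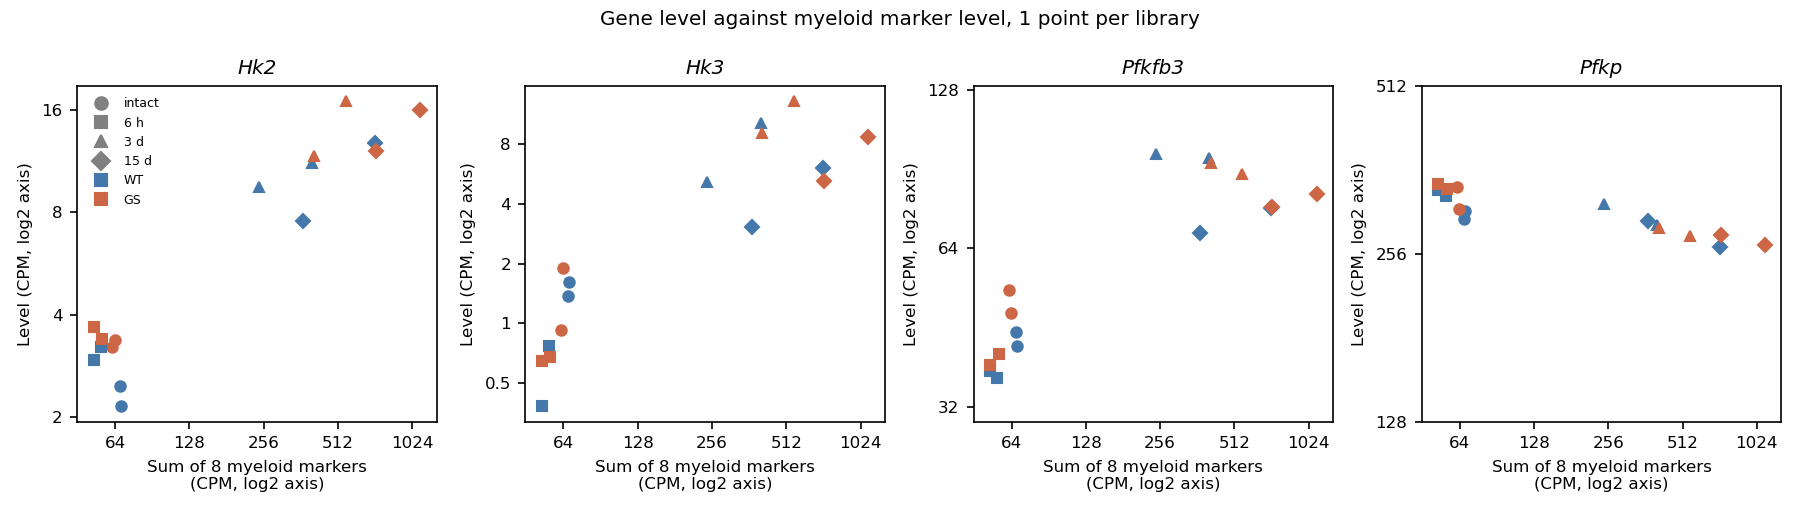
Level of Hk2, Hk3, Pfkfb3 and Pfkp (vertical log2 axis, CPM) against the summed level of 8 myeloid markers (horizontal log2 axis, CPM), 1 point per library. Shapes mark the stage and colours the genotype. Marker sums under 70 CPM go with Hk2 under 4 CPM and sums over 240 CPM with Hk2 above 7.5 CPM. Pfkp ranges overlap, at 264 to 315 CPM for the higher sums and 295 to 341 CPM for the lower.

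Neuronal markers fell too, in both genotypes. The 6 neuronal markers summed to 3816 to 4119 CPM in intact libraries, 3793 to 3968 at 6 h, 3202 to 3844 at 3 d and 2802 to 3281 at 15 d. In GS 2 of them fell at 3 d and 5 at 15 d, with median log2 fold changes of -0.26 and -0.48, and in WT 3 and 6 fell (-0.22 and -0.34). Of 8 markers of striatal projection neurons, 6 fell in GS at 3 d and 8 at 15 d, against 1 and 5 in WT. Of all genes, 16.4% and 17.6% were lower in GS at these times, and 12.7% and 11.2% in WT. In the direct test of a genotype difference in response, 0 of the 8 passed at 3 d and 0 at 15 d. Their sums were 7177 to 8114 CPM in intact GS and 6344 to 6878 in intact WT libraries. At 15 d they were 4925 to 5031 CPM in GS and 4902 to 5326 in WT, so a greater loss in GS is not shown. The part of these cells in the decreases of Hk1, Pfkm, Pfkp, Pkm, Ldha and Ldhb was not tested. Astrocyte markers (6 genes) summed to 4186 to 4365 CPM in intact tissue and 4614 to 5810 CPM at 3 d, and 4 of 6 rose at 3 d in both genotypes.

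Genes whose levels followed each member most closely were found by Pearson's r of log2 CPM over the 16 libraries, among 15349 genes with a mean of at least 1 CPM. The r is a measure of likeness only, since all libraries of a stage share their treatment and the levels of Hk2, Hk3 and Pfkfb3 fall into 2 separate ranges (intact tissue and 6 h, 3 d and 15 d). Hk2 was most like Ctsb (r = 0.990), a lysosomal protease, Rac2 (0.989), a GTPase of blood cells, and Slc7a7 (0.988), an amino acid transporter. Hk3 was most like Lgals9 (0.982), a galectin, Casp8 (0.981), an apoptotic caspase, and Fgfrl1 (0.981). Pfkfb3 was most like Pdia4 (0.981), a chaperone of the endoplasmic reticulum, Stk40 (0.977) and Mdn1 (0.977).

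The closest genes of the other members were of mixed kinds. Hk1 was most like Sppl2b (r = 0.947), Atp9a (0.944) and Slc27a4 (0.942). Pfkl was most like Sf3b5 (0.892), Polr2e (0.869) and Gprc5c (0.857), and Ldhb like Adcy3 (0.913), B4galnt1 (0.910) and Dctn3 (0.909). Ldha was most like Pgk1 (r = 0.871), the glycolytic phosphoglycerate kinase, then Pak1ip1 (0.866) and Ap2b1 (0.843). Pfkm was most like Ube2o (0.935), Spsb3 (0.933) and then Uqcrc1 (0.930), a subunit of respiratory complex III. Pfkp was most like Gucy1b1 (0.965), a subunit of the nitric oxide receptor, Pcsk2 (0.965), a prohormone convertase of neurons, and Nlgn1 (0.963), a synaptic adhesion protein. The 3 genes most like Pkm were Gm2606 (0.979), Gm7336 (0.964) and Gm2451 (0.953). These are near copies of Gapdh, the glyceraldehyde phosphate dehydrogenase of glycolysis, with which they shared 95.8, 96.5 and 85.1% of their 40-base words, against 0% with Pkm. Gapdh itself had r = 0.905 with Pkm, and its counts may be split among these copies.

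Counts for the other genes of glycolysis and glucose uptake are read beside the shares of all genes called (27.4% in WT at 3 d, 25.4% at 15 d, 35.1% in GS at 3 d and 37.1% at 15 d), and so are those of the lists that follow. Of 21 tested, 2 rose and 2 fell in WT at 3 d and 1 rose and 2 fell at 15 d, and in GS 1 rose and 3 fell and then 1 rose and 6 fell. Slc2a3, the neuronal glucose transporter, rose at 6 h in both genotypes (0.45 ± 0.08 in WT, edgeR adjusted p = 0.00928, and 0.58 ± 0.08 in GS, 0.000599), the stage at which no member rose. Slc2a1, the glucose transporter of endothelium and glia, rose in WT at 3 d (0.45 ± 0.11, 0.00822) and was at 0.22 ± 0.11 in GS (0.141). The neuronal enolase Eno2 fell at 15 d in both (-0.26 ± 0.08 in WT and -0.39 ± 0.08 in GS), and so did the phosphoglycerate mutase Pgam1 (-0.19 ± 0.06 and -0.25 ± 0.06).

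Among 9 tested genes of lactate and pyruvate transport, the monocarboxylate transporters Slc16a1 and Slc16a3 rose at 3 d and 15 d in both genotypes. Slc16a3, the exporter of glycolytic cells, had 2.82 to 4.33 CPM in intact libraries, 6.72 to 7.69 at 3 d and 4.605 to 10.3 at 15 d, with none of the later libraries overlapping the intact ones. Its log2 fold change was 1.06 ± 0.23 in WT at 3 d (edgeR adjusted p = 0.00344) and 0.93 ± 0.22 in GS (0.00493). Slc16a1 went from 23.9 to 27.5 CPM in intact tissue to 45.0 to 60.9 CPM at 15 d, a log2 fold change of 0.91 ± 0.14 in WT (0.000385) and 1.18 ± 0.14 in GS (2.36e-05). Of the 9 genes, 2 rose at 15 d in each genotype, and 1 fell in WT and 2 in GS. Ldha was called lower at 15 d in both genotypes, in WT close to the threshold. A link between these changes was not tested. The pyruvate carrier Mpc2 fell at 15 d in both (-0.27 ± 0.10 in each).

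Of 12 genes of the pyruvate dehydrogenase complex and its regulators, Pdk4 and Pdp1 rose at 3 d in both genotypes. Pdk4, a kinase that switches the complex off, rose by 0.98 ± 0.20 in log2 in WT (edgeR adjusted p = 0.00255) and 0.70 ± 0.20 in GS (0.0139). Pdp1, a phosphatase that switches it on, rose by 0.95 ± 0.12 in WT (9.14e-05) and 0.53 ± 0.12 in GS (0.00291). At 15 d Pdk4 was still higher, and the subunits Pdhb (-0.20 ± 0.06 in WT and -0.33 ± 0.06 in GS) and Dlat (-0.22 ± 0.06 and -0.30 ± 0.06) fell in both.

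Of 16 HIF-1 factors and hypoxia targets, 4 rose and 0 fell in WT at 3 d and 3 rose and 1 fell in GS, while at 15 d 4 rose in each, with 3 lower in WT and 4 in GS. Hif1a, the oxygen-regulated subunit, rose by 0.44 ± 0.09 in log2 in WT (edgeR adjusted p = 0.00341) and 0.71 ± 0.09 in GS (7.01e-05) at 3 d. Egln3, a prolyl hydroxylase that marks HIF for degradation, rose at 15 d (1.52 ± 0.24 in WT, 0.000580, and 1.78 ± 0.24 in GS, 7.02e-05), from 1.42 to 1.62 CPM in intact libraries to 3.399 to 5.84. P4ha1, a collagen prolyl hydroxylase, rose at 3 d (0.67 ± 0.15 and 0.70 ± 0.15), and Car9, a carbonic anhydrase, at 15 d (1.41 ± 0.42 and 1.57 ± 0.44). Vegfa, a vascular growth factor, fell at 6 h in both genotypes (-0.58 ± 0.10 in WT and -0.38 ± 0.10 in GS), and Ankrd37 fell at 15 d (-0.71 ± 0.21 in WT and -0.995 ± 0.21 in GS). At 6 h 1 gene of this list fell in WT, and 2 rose and 2 fell in GS. Members of this list therefore moved in both directions.

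Branches that take glucose 6-phosphate, the product of hexokinase, were listed separately. In the pentose phosphate pathway, which makes NADPH, 2 of 8 genes rose in each genotype at 3 d and none fell, at a share of all genes higher of 14.7% in WT and 18.6% in GS: Pgd (0.34 ± 0.10 in log2 in WT and 0.50 ± 0.10 in GS) and G6pdx (0.33 ± 0.06 and 0.25 ± 0.06). In glycogen metabolism 3 of 11 genes rose in WT at 3 d and 6 in GS, and 4 and 6 at 15 d, with 1 lower in GS. Pygl, a glycogen phosphorylase, rose most at 15 d, by 1.19 ± 0.20 in WT (edgeR adjusted p = 0.000851) and 1.64 ± 0.21 in GS (3.93e-05). The glycogen primer Gyg rose by 0.53 ± 0.13 and 0.87 ± 0.13 at the same time, and Ppp1r3c, a targeting subunit that promotes glycogen synthesis, by 0.69 ± 0.13 and 0.39 ± 0.13. Of 3 tested genes of gluconeogenesis none passed in both genotypes at any stage: pyruvate carboxylase Pcx fell in GS at 3 d (-0.30 ± 0.09, 0.0178) and 15 d (-0.26 ± 0.09, 0.0348), and Pck2 rose in WT at 3 d (0.46 ± 0.14, 0.0249). At 6 h the first genes of the lists in which none passed in both genotypes (Slc16a1, Slc16a3, Pdha1, Pdhb, G6pdx, H6pd, Gys1, Gyg, Pcx and Pck2) had log2 fold changes from -0.38 to 0.20, and none of them passed. Other genes of those lists did pass at 6 h. In the pyruvate dehydrogenase list 1 rose in WT and 2 in GS. In GS 1 gene of lactate and pyruvate transport and 1 of glycogen metabolism fell. Of all genes, 4.09% were called in WT and 13.8% in GS at 6 h. None of the pathway lists had a gene that passed between genotypes or in the interaction by edgeR.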

How the data were processed

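Total RNA of 16 striatal samples was sequenced, and the authors deposited raw read counts per gene, per the file headers, with NCBI Gene IDs. The submitters' processing notes name mm10 and FastQC 0.11.7. Aligner, counter and strand setting were not given in the sources used here. Columns name GS or NT, and NT was taken as WT by elimination. The smallest count in the table is 1. In R 4.3.3, edgeR 4.0.16 fitted a quasi-likelihood model (filterByExpr, TMM factors 0.947 to 1.03, 1 coefficient per group, 8 residual degrees of freedom), with 15 contrasts and an adjusted p threshold of 0.05. CPM values are TMM-normalised, and levels per kb use merged GENCODE M21 exons. SE is the absolute log2 fold change over the square root of F. The 2 replicates of a group differed by more than counting error (chi-square over degrees of freedom 9.72 to 32.6). This measure is summed over all genes. For low counts, such as Hk3 at 6 h (21 to 45 reads), depth limits the precision as well. The 10 members, all named in every contrast, and the pathway and marker lists were chosen with earlier results of these data known. From each list up to 3 genes with the largest change among those past the threshold in both genotypes were named, or the first 2 measured, and other named genes, such as Gapdh, lie outside this rule. Slc16a8, Ldhc, Pck1, Fbp1 and Fbp2 are outside the table and not analysed here. The fit was tested on simulated data. Alternatives were RLE factors, DESeq2 1.42.0, the low-count filter left out or made stricter, fits on only the groups compared, a replicate block, leaving out each library or the 3 cortical ones and, chosen after seeing the data, library-total and upper-quartile scaling.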

Additional observations from a re-analysis of the deposited data

How the results depend on the processing

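Of the 28 calls among the members, DESeq2, no filter and a stricter filter kept 28, RLE factors and upper-quartile factors 27, the fit without the 3 cortical libraries 25, the fit on only the groups compared 21 and library-total scaling 16. None changed sign. In GS at 3 d the members called went from 8 to 3 with only the groups compared and to 3 with library-total scaling, and in GS at 15 d from 9 to 3 with the latter. DESeq2 called 1 member (Pkm) against 0 in the interaction at 3 d. Leaving out a library gave 2 to 4 members in WT at 15 d, 0 to 1 in GS at 6 h, 3 to 8 in GS at 3 d and 4 to 9 in GS at 15 d, and the cause of these shifts was not tested. No scaling moved the median of all genes by over 0.1 in log2. Same-numbered replicates of different groups did not deviate together (r from -0.0991 to 0.174 over 28 pairs of groups, 3 of them above 0.1), so the numbers were not taken to pair samples. The replicate block kept 27 of the 28 calls, and the value it lost was Ldha in WT at 15 d (-0.19, adjusted p = 0.0542).

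Counts over all genes moved more. Against 769 in WT at 6 h, DESeq2 called 1457, only the groups compared 1482, the fit without the 3 cortical libraries 4, and leaving out a library 63 to 1073. The cortical fit gave 2178 against 5153 in WT at 3 d and 2281 against 4779 at 15 d, and leaving out a library gave 2414 to 5497 and 2264 to 5161. Only the groups compared gave 3216 in WT at 3 d, and 1190 between 15 d and 3 d against 2601. Leaving out a library gave 1033 to 2909 there, 866 to 2959 in GS at 6 h against 2605, 3928 to 6758 in GS at 3 d against 6598, and 4546 to 7277 in GS at 15 d against 6972. Between genotypes DESeq2 called 165, 57, 17, 3 and 75 genes (intact, 6 h, 3 d, 15 d and averaged) against 3, 1, 2, 1 and 2, and 132, 66 and 20 in the interactions against 2, 0 and 0. Leaving out a library gave at most 26, 7, 142, 2 and 5 genes between genotypes and at most 19, 46 and 0 in the interactions. Depth limits Hk3 at 6 h (21 to 45 reads) more than any other member.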
